A study of Homo sapiens with 6 samples.

Results

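The transcripts of CD40LG and other T-cell cytokines were examined in H9 cells, an established human cutaneous T-cell lymphoma line, by bulk RNA-seq. The 9 genes were chosen by name (CD40LG, CD70, TNF, LTA, LTB, TNFSF8, TGFB1, IL16 and IL32), with values of the same comparison known. Each of the 9 was found among the 61541 genes counted, and each was among the 17678 genes that passed a filter on low counts. All cells were wild type (WT) and came from 1 line. One group had 3 libraries treated with DMSO, the vehicle, and the other had 3 libraries treated for 4 h with 50 nM AZD4573, a selective inhibitor of CDK9, the kinase that releases paused RNA polymerase II into elongation. The time is labelled for the AZD4573 libraries only, and nothing in the labels says that the replicates of a group were separate cultures, so that the p-values below measure the spread between these libraries. As the treatment contrast was used to choose the 9 genes, their values are given as a description without a test.

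Most of these genes encode ligands of the TNF superfamily. Most such ligands are made as trimers on the cell surface and may be shed. The ligands signal through receptors of the TNF receptor superfamily to NF-kB, MAP kinases or cell death. In T cells they carry help to B cells and dendritic cells (CD40LG), costimulation (CD70, TNFSF8) and inflammation or lymphoid tissue organization (TNF, LTA, LTB). TGFB1 is a suppressive cytokine stored as a latent complex, IL16 is a chemoattractant released from a larger precursor, and IL32 is an inflammatory cytokine of T and NK cells. Many cytokine mRNAs are short-lived because proteins bind AU-rich motifs in their 3′ untranslated region (UTR).

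Total counts ranged from 70367303 to 76571157 with DMSO and from 52101868 to 63795185 with AZD4573, and a count of 0 allows up to 0.0392 CPM in the largest library and up to 0.0576 CPM in the smallest, taken as 3 counts of the total and covering counting error only. Levels are CPM, the counts of a gene as a share of the library's total and scaled by edgeR's TMM factors. Of 12 T-cell markers, 11 were above 1 CPM with DMSO, and CD2 was not (0.105 ± 0.0562 CPM, SD, n = 3). The summed level of these 12 markers ranged from 1444 to 1519 CPM with DMSO and from 1969 to 2003 CPM with AZD4573. These sums were taken with the TMM scaling only, and not every marker moved the same way. Markers of myeloid cells summed to at most 0.403 CPM and those of NK cells to at most 0.246 CPM in any library, whereas CD79A, a B-cell marker, was at 57.8 ± 2.96 CPM with DMSO and 93.5 ± 4.99 CPM with AZD4573 (SD, n = 3). Its partner CD79B lay in the opposite direction, at 5.66 ± 0.0585 and 3.46 ± 0.272 CPM, and EPCAM, an epithelial marker, was at 155 ± 10.3 and 134 ± 2.46 CPM (SD, n = 3). The part of these markers in the results below was not tested. MS4A1, which encodes the B-cell antigen CD20, stayed below 0.5 CPM in each library. In bulk samples fewer cells of a type and less RNA per cell cannot be told apart.

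CD40LG was by far the least abundant of the 9 transcripts, LTB the most abundant, and their order hardly differed between the groups. Per kilobase of merged exon, LTB was at 699.7 ± 27.9 CPM (SD, n = 3) with DMSO, followed by IL32 (120 ± 3.77), TGFB1 (82.4 ± 1.46), LTA (78.8 ± 2.25), CD70 (28.0 ± 0.895), IL16 (16.9 ± 0.0956), TNF (8.92 ± 0.944), TNFSF8 (6.09 ± 0.622) and CD40LG (0.0252 ± 0.00469). TGFB1 and LTA, neighbours in this order, overlapped between libraries, from 80.8 to 83.6 for TGFB1 and from 76.7 to 81.2 CPM per kilobase for LTA. With AZD4573 the order was the same except that LTA (99.0 ± 4.49) stood above TGFB1 (75.4 ± 0.605 CPM per kilobase, SD, n = 3). Merged exons overstate the length where most transcripts are short, since those of CD40LG span 6887 bases and its canonical transcript 1852, and those of IL32 span 3209 and its canonical transcript 818.

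Upon AZD4573 treatment, 1 of the 9 transcripts was lower by at least 1.5-fold with groups that did not overlap (TNFSF8), and 2 were higher (CD40LG and TNF). Over all genes tested, 24.0% were lower and 23.0% higher by this rule without a test. Without the fold limit, 3 of the 9 had each AZD4573 library below each DMSO library (CD70, TNFSF8 and TGFB1), 5 had each above (CD40LG, TNF, LTA, IL16 and IL32) and LTB overlapped, where 38.7% of all genes lay below and 39.0% above. The median log2 fold change was 0.21 for the 9 transcripts and 0.03 for all genes tested. These directions depend on the scaling. Mitochondrially encoded mRNAs, which are not made by RNA polymerase II, made up 3.13% ± 0.0929 of the counts with DMSO and 4.85% ± 0.162 with AZD4573 (SD, n = 3), and with the libraries scaled to these 13 mRNAs the median of all genes moved from 0.03 to -0.71. Under this scaling 4 of the 9 were lower and 1 was higher by at least 1.5-fold, and the log2 fold change was positive for CD40LG and TNF alone.

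**Figure D1:**
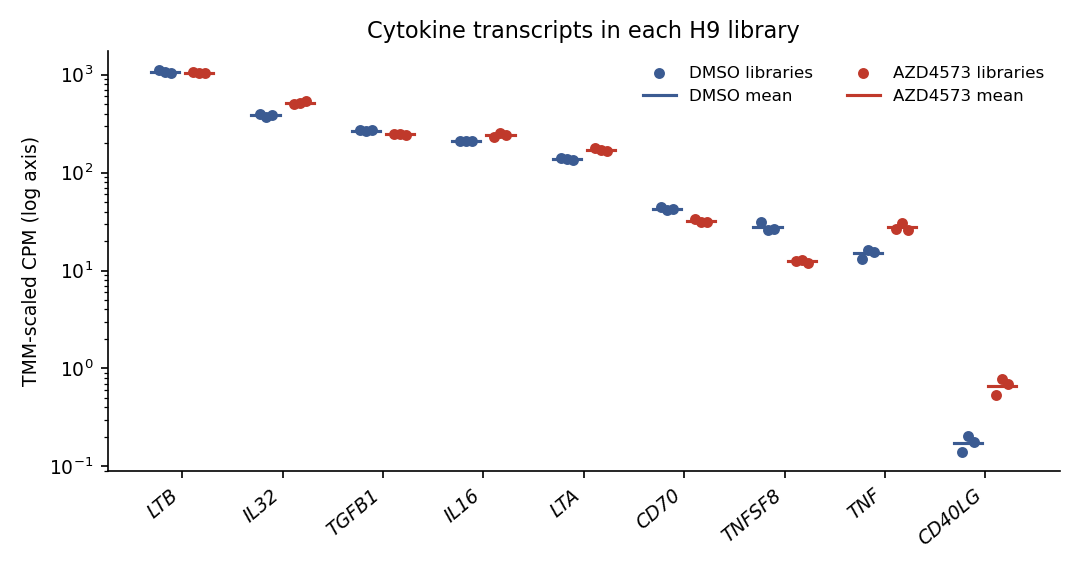
Level of each cytokine transcript in TMM-scaled CPM (log axis) in the 3 DMSO and the 3 AZD4573 libraries. Points are libraries and bars are means of 3. LTB lies near 1000 CPM in both groups, and CD40LG lies below 1 CPM in each library.

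CD40LG (ENSG00000102245) encodes the ligand of CD40, through which helper T cells activate B cells and dendritic cells. It lies on chromosome X of GRCh38 from 136648158 to 136660390 and has 5 exons in its canonical transcript. It had 11, 15 and 13 counts with DMSO and 27, 44 and 42 with AZD4573, or 0.140, 0.205 and 0.176 CPM against 0.530, 0.772 and 0.688 CPM. The groups did not overlap, but each value rests on 11 to 44 reads, where a count of 0 would allow up to 3. CD40LG needed the AZD4573 libraries to pass the filter on low counts, because DMSO replicate 1, the largest library, fell short of its limit. The log2 fold change was 1.93 with a standard error (SE) of 0.355, or 3.804-fold, the largest of the 9, and it was 1.19 when scaled to the mitochondrially encoded mRNAs. The libraries of each group differed by 18.6% and 18.5% (coefficient of variation), where counting noise alone gives 27.7% and 16.3%.

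CD70 (ENSG00000125726), the ligand of the costimulatory receptor CD27, lies on chromosome 19 from 6583183 to 6604103. It was at 44.3, 41.6 and 42.5 CPM with DMSO and at 33.5, 31.1 and 31.6 CPM with AZD4573. Each AZD4573 library was below each DMSO library, with a log2 fold change of -0.42 (SE 0.0536), or 75% of the DMSO level.

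TNFSF8 (ENSG00000106952, chromosome 9 from 114893343 to 114930595) encodes CD30 ligand, whose receptor CD30 is the product of TNFRSF8. It was at 31.4, 26.2 and 26.6 CPM with DMSO and at 12.41, 12.75 and 11.99 CPM with AZD4573. Of the 9 transcripts it was the furthest below its DMSO level, with a log2 fold change of -1.18 (SE 0.0775), which leaves 44.1%. DMSO replicate 1 was the highest library of its group, and without it the log2 fold change was -1.10. The ratio of TNFSF8 to CD70 within a library, which does not depend on scaling, was 70.8, 63.0 and 62.6 counts of TNFSF8 per 100 of CD70 with DMSO and 37.1, 41.0 and 37.9 with AZD4573.

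TNF, LTA and LTB lie next to each other on chromosome 6, spanning 10469 bases in the MHC class III region. LTA (ENSG00000226979) runs from 31572054 to 31574324 and TNF (ENSG00000232810) from 31575565 to 31578336 on the same strand, 1240 bases apart, and LTB (ENSG00000227507) follows from 31580525 to 31582522 on the opposite strand. In GENCODE release 44 no other gene overlaps their exons. TNF encodes the prototype of the family, LTA encodes lymphotoxin alpha, and LTB the membrane-bound partner that holds lymphotoxin alpha at the cell surface.

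TNF was at 13.2, 16.2 and 15.6 CPM with DMSO and at 26.8, 30.6 and 25.7 CPM with AZD4573. The lowest AZD4573 library was above the highest DMSO library, with a log2 fold change of 0.89 (SE 0.0869), or 1.85-fold. LTA was at 141, 137 and 133 CPM with DMSO and at 180, 171 and 165 CPM with AZD4573. Its groups did not overlap either, with a smaller log2 fold change of 0.33 (SE 0.0455). LTB was at 1122, 1060 and 1040 CPM with DMSO and at 1059, 1049 and 1042 CPM with AZD4573. Its groups overlapped, with a log2 fold change of -0.03 (SE 0.0426). With mitochondrial scaling, the values were 0.15 for TNF, -0.41 for LTA and -0.77 for LTB.

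The ratios of these neighbours within a library do not depend on scaling. There were 9.34, 11.8 and 11.7 counts of TNF per 100 counts of LTA with DMSO and 14.9, 17.9 and 15.6 with AZD4573. Per 100 counts of LTB, TNF had 1.40 ± 0.195 with DMSO and 2.64 ± 0.248 with AZD4573, and LTA had 12.8 ± 0.162 and 16.4 ± 0.608 (SD, n = 3). The groups did not overlap in any of these ratios. They describe genes chosen with this contrast known, and how often other pairs of genes differ in this way was not examined.

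**Figure D2:**
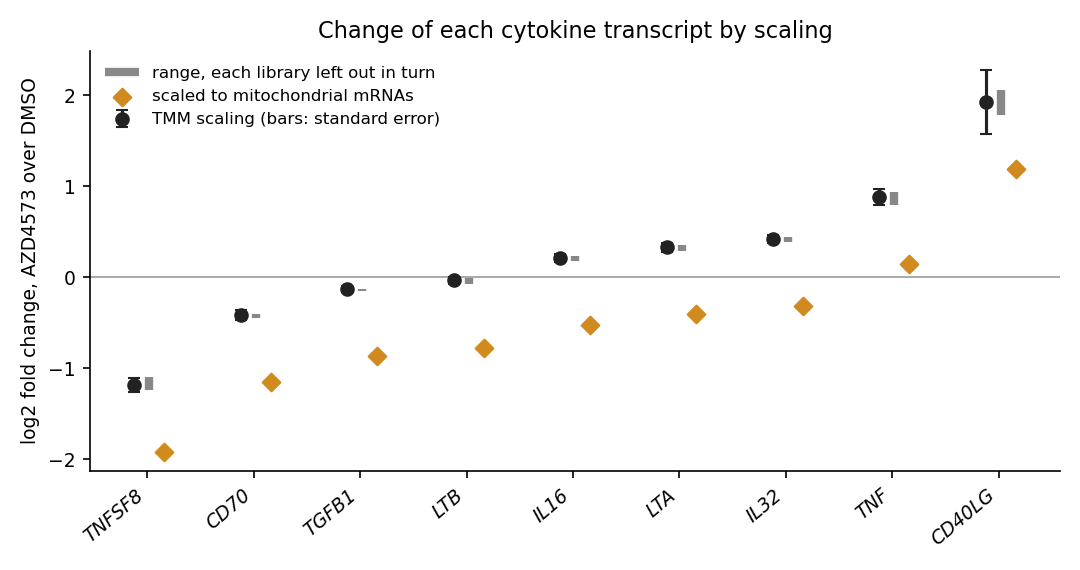
Log2 fold change of each cytokine transcript (AZD4573 over DMSO). Black points with bars are the TMM-scaled values with their SE, grey bars span the values with each library left out in turn, and diamonds are the values scaled to mitochondrially encoded mRNAs. TNFSF8 is lowest at -1.18 and CD40LG highest at 1.93, and the mitochondrial scaling leaves CD40LG and TNF alone above 0.

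AU-rich motifs are shown because such elements control the lifetime of many cytokine mRNAs. Their part in the changes of these transcripts was not tested. The canonical 3′ UTR of TNF (799 bases) holds 9 copies of the pentamer ATTTA and 5 of the nonamer TTATTTATT, counted with overlaps. That of LTA (631 bases) holds 3 and 1, that of CD40LG (975 bases) 5 and 1, and that of LTB (151 bases) 0 and 0. The windows of 30 bases richest in these motifs are printed for TNF, LTA, CD40LG and CD70. Those of TNFSF8, TGFB1 and IL16 each hold 1 pentamer and no nonamer and are not printed. On GRCh38 the printed windows lie at chr6:31578003-31578032 for TNF, chr6:31574067-31574096 for LTA and chrX:136660343-136660372 for CD40LG, all on the plus strand. That of CD70 lies at chr19:6585960-6585989 on the minus strand. The printed windows are written 5′ to 3′ with ATTTA in capitals.
TNF: tttattATTTATTTAttATTTATTTATTTA
LTA: aaaattaaattATTTATTTAtggaggatgg
CD40LG: aattatcttgttATTTAttttttgaataat
CD70: ttattttattttATTTAagttcaagagaaa

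TNF, LTA and CD40LG, which each hold the nonamer, had log2 fold changes of 0.89, 0.33 and 1.93 with TMM scaling, and that of LTA was negative when scaled to mitochondrially encoded mRNAs. The other 6 transcripts hold no nonamer and lay on both sides of 0. IL32 (0 pentamers) and IL16 (6 pentamers) were at 0.42 and 0.21, both negative with mitochondrial scaling, and LTB (0 pentamers) was at -0.03. TGFB1 (2 pentamers), CD70 (1 pentamer) and TNFSF8 (5 pentamers) were at -0.13, -0.42 and -1.18. As these 9 genes were chosen with this contrast known, nothing is read from their values against the motif. Among 13361 protein-coding genes tested with an annotated 3′ UTR, 9.20% held the nonamer. Their median log2 fold change was -0.26, from -0.83 to 0.32 between the quartiles, against -0.06 for the genes without it. With at least 1 pentamer (70.5% of genes) the median was -0.19, and with none it was 0.17. A longer 3′ UTR is likelier to hold either motif, and these sets were not matched for length, so that motif and length cannot be told apart. A match is a description of the annotated sequence, and the transcripts in these cells may end elsewhere.

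The start regions of TNF and LTB are shown as a description, and a link between their motifs and the changes was not tested. Start regions of 300 bases from RefSeq were used here for 6 of the 9 genes (TNF, LTA, LTB, TGFB1, IL16 and IL32), from 250 before to 50 after the start. That of IL16 (chr15:81199226-81199525) lies inside the gene as GENCODE places it, so that its outer start was not searched. Which starts H9 cells use was not examined. On both strands, 4 motifs were searched. The TATA box was TATAAA, AP-1 was TGANTCA and the GATA motif was GATAA or else GATAG with an A or T before it. For NF-kB, only some forms of the consensus of 10 bases were searched, and the NF-kB shares below count these forms alone. A region without an NF-kB match, such as that of TNF, may therefore still hold a site in a form left out. The region of TNF (GRCh38.p14, chr6:31575315-31575614, plus strand) holds the TATA box, as do 11.5% of 35116 RefSeq start regions and 6.01% of the 11422 that belong to genes tested here. That of LTB (chr6:31582376-31582675, minus strand) holds an NF-kB match, as do 6.36% of all and 7.60% of those of tested genes, and so does that of IL32. None of the 6 holds a GATA match (25% of all and 15.3% of tested genes' regions do) or an AP-1 match (7.71% and 4.56% do), and that of LTA holds none of the 4. They are written 5′ to 3′ with the matches in capitals.
TNF: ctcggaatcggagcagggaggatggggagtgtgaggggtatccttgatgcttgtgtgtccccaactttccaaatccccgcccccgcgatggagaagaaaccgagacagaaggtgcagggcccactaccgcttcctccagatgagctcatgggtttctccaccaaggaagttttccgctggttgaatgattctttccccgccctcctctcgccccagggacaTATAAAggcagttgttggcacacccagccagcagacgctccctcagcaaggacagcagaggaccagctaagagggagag
LTB: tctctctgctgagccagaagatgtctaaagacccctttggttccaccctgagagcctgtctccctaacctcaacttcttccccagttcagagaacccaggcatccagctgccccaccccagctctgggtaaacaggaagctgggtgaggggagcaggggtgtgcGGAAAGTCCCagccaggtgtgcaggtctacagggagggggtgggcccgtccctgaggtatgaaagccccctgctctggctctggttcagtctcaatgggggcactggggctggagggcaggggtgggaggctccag

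TGFB1 (ENSG00000105329, chromosome 19 from 41301587 to 41353922) was at 273, 264 and 271 CPM with DMSO and at 247, 248 and 244 CPM with AZD4573. The groups did not overlap, and the log2 fold change was small at -0.13 (SE 0.0377). Its exons share 215 of 3264 bases with HNRNPUL1 on the opposite strand, and the counts ignore strand.

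IL16 (ENSG00000172349, chromosome 15 from 81159575 to 81314058) was at 209.9, 212 and 209 CPM with DMSO and at 234, 253 and 244 CPM with AZD4573, giving a log2 change of 0.21 (SE 0.0412). The groups did not overlap, and the value was -0.53 when scaled to mitochondrially encoded mRNAs. Its exons share 4351 of 12481 bases with STARD5 on the opposite strand, and STARD5 went from 19.7 ± 1.88 to 5.09 ± 1.12 CPM (SD, n = 3), the opposite direction.

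IL32 (ENSG00000008517, chromosome 16 from 3065297 to 3082192) was at 397, 373 and 385 CPM with DMSO and at 499.7, 516 and 534 CPM with AZD4573. The groups did not overlap, with a log2 fold change of 0.42 (SE 0.0429) that was -0.32 when scaled to mitochondrially encoded mRNAs. Per 100 counts of TGFB1 within a library, IL32 had 143 ± 2.23 counts with DMSO and 210.0 ± 8.57 with AZD4573 (SD, n = 3).

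The receptors through which these cytokines act were largely lower in the same libraries. The 12 receptor genes were listed with results of these data known but not chosen by how they moved, and they were tested by the quasi-likelihood method of edgeR, with Benjamini-Hochberg adjusted p-values taken over all genes. Of the 9 receptors that passed the filter on low counts, 6 were called lower and 1 higher (adjusted p under 0.05 together with a change of 1.5-fold or more), where 23.7% of all genes tested were lower and 22.7% higher. Their median log2 fold change was -0.87, against 0.03 for all genes. Scaled to the mitochondrially encoded mRNAs, the same test called 9433 genes lower and 1769 higher in place of 4191 and 4012.

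TNFRSF8, which encodes CD30, the receptor of TNFSF8 and a marker of several T-cell lymphomas, was the most abundant at 169, 166 and 161 CPM with DMSO and fell to 52.9, 52.0 and 45.9 CPM. Its log2 fold change was -1.72 (SE 0.0558 and adjusted p = 3.6e-11, edgeR), so that the transcripts of this receptor and of its ligand were both lower in each AZD4573 library. The TNF receptors TNFRSF1A and TNFRSF1B fell from 81.5 ± 2.81 to 50.6 ± 3.22 CPM and from 48.4 ± 2.26 to 25.7 ± 1.40 CPM (SD, n = 3), with log2 fold changes of -0.69 and -0.91 (adjusted p = 7.6e-08 and 1.0e-08, edgeR). The TNF transcript thus lay higher while both of its receptors were lower. The TGF-beta receptors TGFBR1 and TGFBR2, which form the signalling complex for TGFB1, fell, with log2 fold changes of -1.85 and -1.75 (adjusted p = 2.1e-10 and 6.2e-08, edgeR), from 40.3 ± 0.953 to 11.2 ± 1.31 CPM and from 14.7 ± 0.107 to 4.39 ± 1.19 CPM (SD, n = 3).

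CD40, the receptor of CD40LG, was at 1.12, 0.778 and 0.760 CPM with DMSO and at 0.471, 0.509 and 0.475 CPM with AZD4573. Its log2 fold change was -0.87 (adjusted p = 0.0097, edgeR), and without DMSO replicate 1, the highest library, it was -0.67 (adjusted p = 0.059, edgeR). CD4, the T-cell coreceptor and a receptor of IL16, rose from 3.82 ± 0.215 to 6.98 ± 0.421 CPM (SD, n = 3), which is a log2 change of 0.87 (adjusted p = 4.0e-06, edgeR) that was 0.13 (adjusted p = 0.30) under the mitochondrial scaling. The coreceptor TGFBR3 had a log2 fold change of 0.41 (adjusted p = 0.012, edgeR), below the fold limit. It was 0.32 (adjusted p = 0.063) without AZD4573 replicate 3 and -0.33 (adjusted p = 0.04) under the mitochondrial scaling. TNFRSF14, a receptor of LTA also known as HVEM, was at 57.5 ± 6.24 and 57.1 ± 2.41 CPM (SD, n = 3), with overlapping groups and a log2 fold change of -0.01 (adjusted p = 0.90, edgeR). CD27 (receptor of CD70), LTBR (receptor of the lymphotoxin alpha-beta complex) and CD9 did not pass the filter, with means of at most 0.113 CPM in either group.

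**Figure D3:**
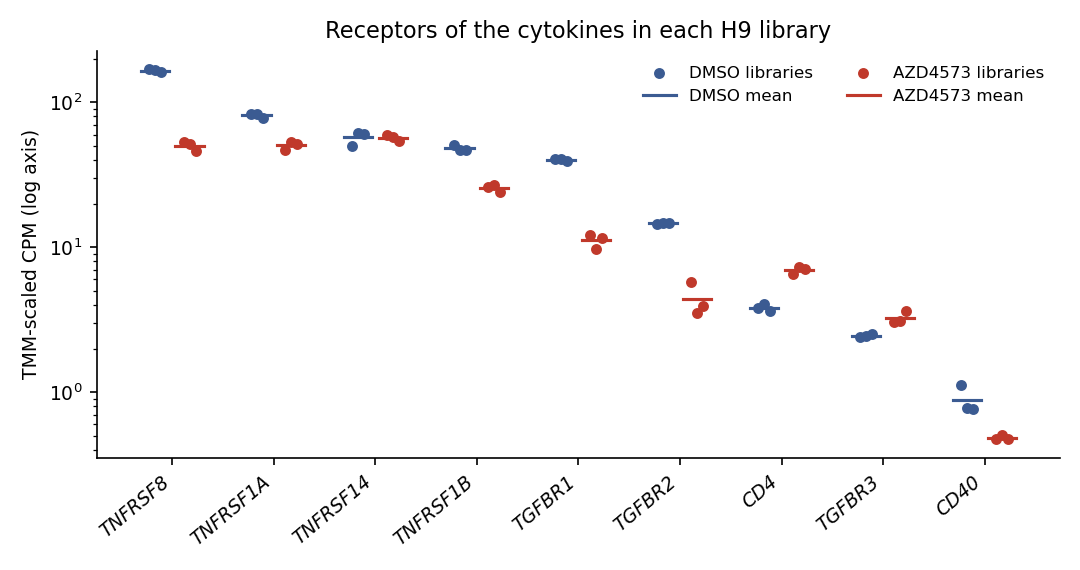
Level of each receptor transcript that passed the filter, in TMM-scaled CPM (log axis), in the 3 DMSO and 3 AZD4573 libraries. Points are libraries and bars are means of 3. TNFRSF8, TNFRSF1A, TNFRSF1B, TGFBR1, TGFBR2 and CD40 lie lower in each AZD4573 library, and TNFRSF14 overlaps.

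Of 12 other ligands of the TNF superfamily, 9 were tested, 4 were called lower and 2 higher (edgeR, same limits), against 23.7% and 22.7% of all genes, and the count of higher ligands was near that share. With 10 counts required in every library, 3 were lower and 1 was higher. The median log2 fold change was -0.52. TNFSF10, which encodes the death ligand TRAIL, fell from 211, 200 and 197 CPM to 100, 98.6 and 97.7 CPM, a log2 fold change of -1.03 (adjusted p = 1.9e-10, edgeR). TNFSF9, which encodes 4-1BB ligand, fell from 10.9 ± 0.509 to 2.38 ± 0.269 CPM (SD, n = 3), which is a log2 change of -2.19 (adjusted p = 7.9e-10, edgeR). The other calls were at low levels, with TNFSF18 and FASLG lower and EDA and TNFSF13B higher. TNFSF13B, with 7, 3 and 5 counts with DMSO, passed the filter through the AZD4573 libraries alone. FASLG, named after its values were seen, had 77, 63 and 56 counts with DMSO and 0, 0 and 6 with AZD4573. It passed the filter through the DMSO libraries alone.

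Of 43 other cytokines and chemokines, 23 were tested, 7 were called lower and 7 higher (edgeR, same limits), near the shares of all genes (23.7% lower and 22.7% higher), and 6 had no count in any library. OSM, which encodes oncostatin M of the IL-6 family, fell from 45.3, 44.1 and 43.0 CPM to 17.1, 17.7 and 16.5 CPM, a log2 fold change of -1.37 (adjusted p = 1.7e-10, edgeR). IL10, a suppressive cytokine, fell from 40.1 ± 1.07 to 18.1 ± 1.31 CPM (SD, n = 3), which is a log2 change of -1.15 (adjusted p = 2.1e-09, edgeR). The other lower genes were IL2, IL4, IFNG, CSF1 and CXCL10, each under 10 CPM. The higher ones were IL5, IL11, IL13, IL17F, IL24, TGFB2 and TGFB3, each with a mean of at most 1.29 CPM in either group, and 2 remained higher when 10 counts were required in every library. IL5, IL13, IL17F, IL24 and TGFB2 needed the AZD4573 libraries to pass the filter, and the lower IL4 needed those with DMSO. The groups of IL24 overlapped. Part of these counts therefore follows from the filter.

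**Figure D4:**
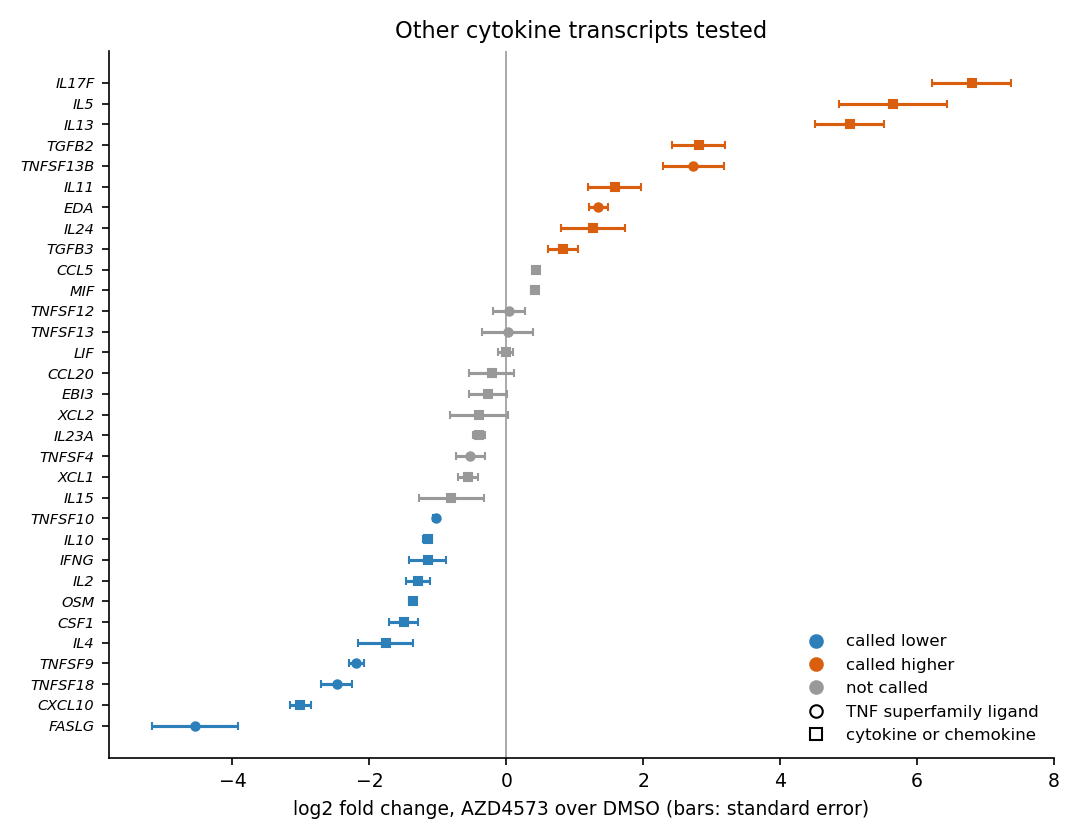
Log2 fold change (AZD4573 over DMSO) with its SE for the 9 other TNF superfamily ligands (circles) and the 23 other cytokines and chemokines (squares) that were tested. Colours give the call of edgeR's test. The largest positive values belong to genes with few DMSO counts, such as IL17F and IL5.

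Among the proteins that release or activate these cytokines, 15 of 17 genes were tested, 5 were called lower and 1 higher (edgeR, same limits, against 23.7% and 22.7% of all genes), and the median log2 fold change was 0.07. NRROS, which tethers latent TGF-beta, fell from 179.6 ± 3.47 to 90.3 ± 8.38 CPM (SD, n = 3), which is a log2 change of -0.99 (adjusted p = 4.0e-09, edgeR). RHBDF2, the iRhom2 partner that brings the TNF sheddase ADAM17 to the surface, had a log2 fold change of -0.86 (adjusted p = 3.6e-06, edgeR), and ADAM17 and ITGAV were also called lower. SPPL2B, an intramembrane protease that acts on the TNF stub, rose by 0.83 on the log2 scale (adjusted p = 4.1e-07, edgeR), a rise that was 0.09 (adjusted p = 0.30) under the mitochondrial scaling. FURIN, which cuts the TGFB1 precursor and was picked after its values were seen, was at 227 ± 3.31 and 239 ± 4.79 CPM (SD, n = 3) and did not pass the test (adjusted p = 0.10, edgeR).

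Of 15 regulators of cytokine mRNA stability, all tested, 1 was called lower and 3 higher (edgeR, same limits), against 23.7% and 22.7% of all genes. The count of higher regulators was near that share, and with library size only 2 were lower and 1 higher. The median log2 fold change was -0.07. ZFP36, which encodes tristetraprolin, a protein that binds AU-rich elements of TNF mRNA and promotes its decay, fell from 36.0, 41.8 and 38.4 CPM to 20.3, 21.5 and 19.5 CPM, a log2 fold change of -0.92 (adjusted p = 3.0e-08, edgeR). ELAVL1, which encodes HuR, a protein that stabilizes such mRNAs, rose from 209 ± 3.86 to 319.5 ± 19.5 CPM (SD, n = 3). Its log2 change was 0.62 (adjusted p = 5.3e-08, edgeR), and under the mitochondrial scaling it was -0.13 (adjusted p = 0.045, edgeR). ZC3H12A, which encodes the cytokine mRNA nuclease Regnase-1, rose by 0.66 on the log2 scale (adjusted p = 2.5e-06, edgeR) and was at -0.08 under the mitochondrial scaling. Its relative ZC3H12D rose by 1.28 (adjusted p = 1.6e-08, edgeR). Under the mitochondrial scaling ZC3H12D was at 0.535 (adjusted p = 9.7e-06, edgeR), below the fold limit. Among genes not called, picked after their values were seen, the relatives of ZFP36, ZFP36L1 and ZFP36L2, had log2 fold changes of -0.13 and -0.28. PTBP1, which binds CD40LG mRNA, was at 593 ± 30.6 and 591 ± 19.2 CPM (SD, n = 3).

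The genes whose pattern was most like that of CD40LG, by the Pearson correlation of log2 CPM over the 6 libraries among 9496 genes of at least 10 CPM, were SBF1, CDK11B, BCL3, INPP5D and STK35, with coefficients from 0.9987 to 0.9994. With 3 libraries in each of 2 groups, 262 genes exceeded 0.99, so that this describes a step between the groups with a low value in replicate 1 of each. These 5 genes had log2 fold changes from 0.36 to 0.51, against 1.93 for CD40LG.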

How the data were processed

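The 6 libraries of H9 cells were assigned to DMSO or AZD4573 (3 each) from their labels. The authors trimmed reads with Cutadapt 2.3, aligned them to GRCh38 with STAR 2.7.8a and deposited RSEM 1.3.3 expected counts per gene (default parameters, strand ignored), unnormalized and whole. Poly(A) selection is given in the labels, rRNA depletion in the supplemental methods. Besides genes, 5 reporter sequences had 0 counts and were left out.

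Counts were analysed in R 4.3.3 with edgeR 4.0.16 (filter with a minimum count of 10, TMM, quasi-likelihood test, Benjamini-Hochberg adjustment over 17678 genes, no replicate block). Calls needed an adjusted p below 0.05 together with a change of 1.5-fold or more. The fit was tested on simulated data. No pair of libraries of a group was a duplicate, since chi-square divided by its degrees of freedom was 5.59 or more. The members and lists were chosen with earlier results of these data known. Named were the 9 cytokines, all receptors tested, up to 4 genes with the largest change in each other list among those called with at least 10 CPM in the higher group, and the 5 genes most correlated with CD40LG. A gene named by this rule and a marker are not reported here. Alternatives were RLE factors, library size only, scaling to 13 mitochondrially encoded mRNAs, no filter, DESeq2 1.42.0, a replicate block, a minimum of 10 counts throughout, a limit of 2-fold, and omission of single libraries. Positions and UTRs came from GENCODE release 44, start regions from RefSeq (GRCh38.p14).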

Additional observations from a re-analysis of the deposited data

How the results depend on the processing

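Scaling mattered most. With scaling to mitochondrially encoded mRNAs, 9433 were called lower and 1769 higher, and of the 9 cytokines 4 were lower and 1 higher. The counts of lower and higher genes became 14 and 4 for other cytokines, 11 and 0 for processing proteins, and 12 and 0 for mRNA stability regulators, and no receptor was higher (0). These shifts go with that of the median of all genes (0.03 to -0.71), and their cause was not tested. This scaling reversed LTA (-0.408), IL16 (-0.528), IL32 (-0.315), TGFBR3 (-0.325), ZC3H12A (-0.0807), ELAVL1 (-0.125), SBF1 (-0.344), CDK11B (-0.225), BCL3 (-0.375), INPP5D (-0.319) and STK35 (-0.236) on the log2 scale. With library size only, 4769 genes were lower and 3444 higher, and 2 stability regulators were lower and 1 higher. Without a filter 2 receptors were higher. With at least 10 counts in every library, fewer genes were tested, 1 other TNF superfamily ligand and 2 other cytokines were higher, and LTB reversed to 0.004 and TNFRSF14 to 0.0272. With a limit of 2-fold, 2450 were lower and 2643 higher, and 1 of the 9 cytokines was higher.

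Omitting single libraries gave 4142 to 4337 lower and 3872 to 4119 higher genes, TNFRSF14 ranged from -0.109 to 0.0261 across 0, and the log2 fold change of each of the 9 cytokines kept its sign. It also moved list counts, with 4 to 7 processing proteins and 7 to 9 other cytokines called lower. Receptors called lower were 5 or 6, and other TNF superfamily ligands 4 or 5. Called higher were 6 or 7 other cytokines and 2 or 3 stability regulators. Same-numbered libraries shared only a number (correlation of their deviations -0.0208, 0.0417 and 0.0316). A replicate block gave 4162 lower and 3926 higher genes, and the counts for the lists and the 9 cytokines were the same. DESeq2 gave 4076 lower and 3906 higher genes.

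Among the 9 cytokines, depth limits CD40LG most, with 11 to 44 counts a library, and several other genes named here, such as FASLG and IL5, rest on fewer in 1 group.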

Other observations

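Among the genes that lay outside the rule for naming, and chosen here after their values were seen, IL5, IL13 and IL17F had at most 4 reads in a DMSO library and at least 11 in an AZD4573 library. IL17F, a cytokine of the Th17 type, had 0, 0 and 2 counts with DMSO and 70, 59 and 73 with AZD4573. IL13, a cytokine of the Th2 type, had 4, 0 and 3 counts against 60, 62 and 57, and its neighbour on chromosome 5, IL5, had 1, 0 and 0 against 11, 22 and 21. IL4, also picked after its values were seen and the Th2 cytokine of the same cluster, went the other way, with 41, 27 and 38 counts with DMSO and 10, 6 and 7 with AZD4573. All of these are under 1.5 CPM in each library, and each passed the filter on the strength of 1 group alone. That group was AZD4573 for IL5, IL13 and IL17F, and DMSO for IL4.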
